A study of Macaca mulatta with 4 samples.

Results

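Collagen chain genes encode the polypeptides that wind in threes around one another into the triple helices of the extracellular matrix. They were chosen by name alone, as every row of the deposited count table whose rhesus Ensembl symbol has the form COL, a type number, A and a chain number. The rule found 41 genes among the 21314 rows of the table, 14654 of which carry a symbol. The other 4 names in a list of 45 collagen chain genes, COL6A4, COL7A1, COL10A1 and COL24A1, matched no row and are not analysed here. COL6A4 and COL7A1 have no identifier in the table of symbols, so they may lie among the rows without a symbol. COL10A1 and COL24A1 have an identifier there, but no row of the count table carries it. A gene that matched no row is not shown to be silent.

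RF/6A is a cell line of the rhesus macaque, Macaca mulatta, that its labels describe as chorioretinal, and the series asks whether it has the transcripts of endothelium. It is 1 established line from a cell bank, grown in Dulbecco's medium with heat-inactivated fetal bovine serum and 2 antibiotics, under static conditions. The 4 libraries form a single group, static replicates 1 to 4, with no treated group and no other cell type. The labels do not say whether they came from separate cultures, so the spread between them may be technical.

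Depth was even, from 20366946 to 20550610 estimated counts per library. Levels are given in counts-per-million (CPM) after scaling by the trimmed mean of M-values (TMM), and a gene is called expressed where no library falls below 1 CPM. Of marker lists, 1 of 7 matched endothelial genes and 9 of 9 matched fibroblast and mesenchymal genes without collagens were expressed. Of matched pigment epithelium and melanocyte genes 3 of 5 were, near the 64.2% of all rows with a symbol. The expressed endothelial marker was PECAM1 at 2.05, 2.10, 3.41 and 2.40 CPM in libraries 1 to 4. KDR reached 1.49 to 2.50 CPM outside library 2, and CDH5 and VWF, the junction cadherin and the von Willebrand factor, measured 0.601 ± 0.305 and 0.432 ± 0.282 CPM (SD, n = 4). Library 2 stood apart from the other 3 libraries in composition. Ribosomal protein genes took 14.98% of its counts, against 6.08% to 6.66% elsewhere, and rows without a symbol took 21.7% against 13.1% to 13.9%. For chains that it moves, values are therefore given by library or with the mean of the other 3 libraries at the same scaling, and the part of that library's composition in each collagen value was not tested.

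A collagen molecule is built from 3 chains of one type, which may be identical or come from several genes, and each chain is a long run of triplets that start with glycine. Fibrillar collagens form the banded fibres of connective tissue, type IV forms the sheet under epithelium and endothelium, and fibril-associated collagens sit on the surface of fibres. Type VI makes beaded filaments around cells, type VIII a hexagonal network known from vessels and from Descemet's membrane of the cornea, and transmembrane collagens are anchored in the plasma membrane. In the eye, collagens build the sclera, the stroma of the choroid and Bruch's membrane.

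The levels of collagen chains ran from no count in any library to 10781 ± 3810 CPM (SD, n = 4) for COL1A1. The 41 genes took 3.66%, 2.99%, 3.65% and 3.79% of all counts in libraries 1 to 4, a mean of 3.52 ± 0.359% (SD, n = 4) and of 3.70 ± 0.0758% without library 2. Library 2 was the lowest. By the 1 CPM rule 22 of 41 chains (53.7%) were expressed, against a background of 52.9% of all rows and 64.2% of rows with a symbol, so the share of expressed chains was near that of all rows and below that of named rows. A further 5 chains reached 1 CPM in some libraries only, 8 had counts but stayed below 1 CPM in every library, and 6 (14.6%) had no count, where 17.7% of all rows had none. Without library 2 the expressed set held 26 chains, the additions being COL4A3, COL4A4, COL4A6 and COL21A1.

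**Figure D1:**
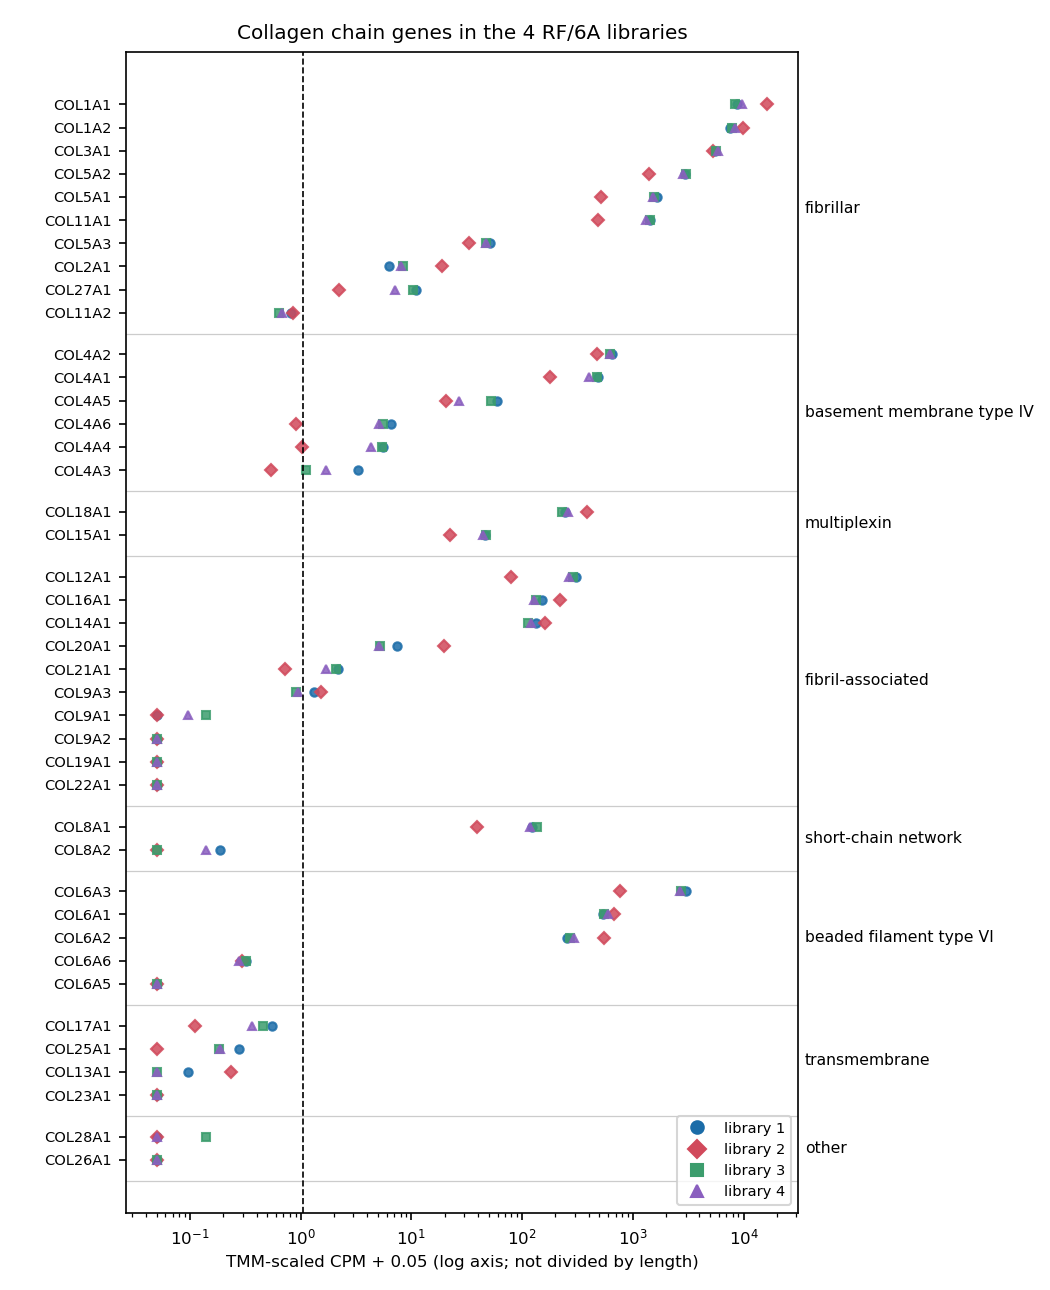
Points show, for every collagen chain gene, the TMM-scaled CPM + 0.05 of libraries 1 to 4 along a logarithmic axis, grouped by class, with a dashed line at 1 CPM and genes with no count at the left edge. Most fibrillar chains and the main type IV and type VI chains lie right of the line in every library, while the 4 transmembrane chains all lie left of it.

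The fibrillar class held most of the collagen counts. Of its 10 matched chains 9 were expressed, and the class took 82.3%, 90.5%, 83.2% and 84.2% of the collagen counts in libraries 1 to 4. COL1A1 (ENSMMUG00000001467), the alpha 1 chain of type I collagen in bone, skin and sclera, measured 8653, 16445, 8427 and 9600 CPM in libraries 1 to 4. Library 2 was the highest, 1.85 times the mean of the others, and the mean without it was 8893 ± 623 CPM. Its partner COL1A2 (ENSMMUG00000039654) measured 7613, 9914, 7802 and 8368 CPM, a mean of 8424 ± 1044 CPM. COL3A1, whose product forms homotrimers in distensible tissues such as vessel walls, measured 5529, 5303, 5668 and 5932 CPM. With TMM over the 4 libraries it was the steadiest of the expressed chains. Under plain CPM its level in library 2 was 0.682 times the mean of the others, against 0.919 for COL1A2. Without library 2, COL4A2 had a smaller coefficient of variation (2.49% against 3.58%). COL1A1, COL1A2 and COL3A1 alone gave 64.2%, 83.9%, 65.1% and 67.9% of the collagen counts. CPM values are not divided by transcript length, so the order of different chains is an order of reads and not of molecules.

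Type V and type XI chains, which are built into type I and type II fibrils and limit their diameter, were also expressed, except for COL11A2. COL5A1 measured 1651, 519, 1566 and 1537 CPM in libraries 1 to 4, and COL5A2 measured 2967, 1410, 3017 and 2843 CPM. Both were lowest in library 2, with means of 1585 ± 58.9 and 2942 ± 89.7 CPM in the other 3 libraries. The third type V chain, COL5A3, measured 51.0, 32.9, 47.1 and 46.9 CPM. COL11A1 measured 1438, 488, 1417 and 1303 CPM, with a mean of 1386 ± 72.7 CPM without library 2. COL11A2, the chain that joins it in cartilage type XI collagen, stayed below 1 CPM in every library at 0.773, 0.802, 0.584 and 0.633 CPM, or 57 counts in all. Over the 4 libraries its exact 95% Poisson upper limit was 0.894 CPM, which covers counting error only.

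The cartilage and minor fibrillar chains were low. COL2A1, the chain of cartilage and vitreous type II collagen that also serves as the third chain of type XI, measured 6.28, 19.1, 8.36 and 7.96 CPM. Library 2 was the highest, and the mean of the other libraries was 7.53 ± 1.10 CPM. Of 3 matched chondrocyte genes that are not collagens none was expressed, the highest being MATN3 at 0.158 ± 0.130 CPM, and SOX9, MATN1 and HAPLN1 matched no row. COL27A1, a chain found in developing cartilage, measured 11.1, 2.16, 10.2 and 7.06 CPM, and its level in library 2 was 4.38 times below the mean of the others.

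**Figure D2:**
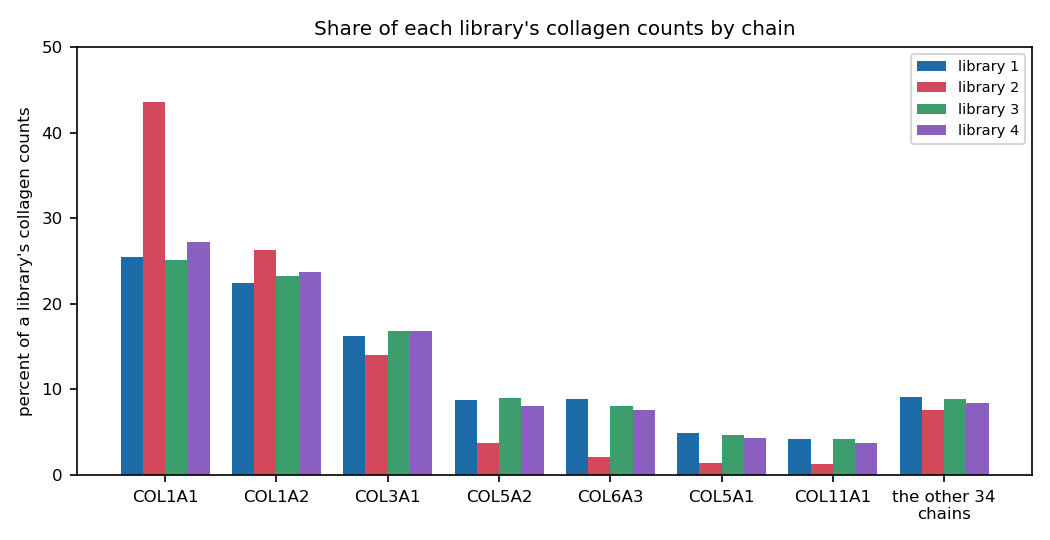
Bars give the percent of a library's collagen counts taken by each of 7 chains and by the other 34 chains together, in 4 bars for libraries 1 to 4. COL1A1 takes 43.6% in library 2 and 25.1% to 27.3% in the others, while COL5A2, COL6A3, COL5A1 and COL11A1 take smaller shares in library 2 than in the others.

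Basement membrane type IV chains were led in reads by the ubiquitous pair. COL4A1 (ENSMMUG00000022280) measured 489.9, 179, 473 and 402 CPM in libraries 1 to 4, and COL4A2 (ENSMMUG00000022282) measured 647, 470.1, 621 and 619.9 CPM. Without library 2 their means were 455 ± 46.6 and 629 ± 15.7 CPM. COL4A5, a chain of the glomerular, lung and eye basement membranes, measured 59.3, 20.4, 52.7 and 27.0 CPM. Library 4 lay below libraries 1 and 3 with counting intervals that did not overlap, 24.9 to 29.3 CPM against 49.8 to 55.8 CPM in library 3 (exact 95% Poisson). Narrow intervals at high counts also failed to overlap where gaps were smaller. For COL4A1 they were 394 to 410 CPM in library 4 and 464 to 482 CPM in library 3.

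The remaining type IV chains were low and fell under 1 CPM in library 2. COL4A6, which trimerizes with COL4A5 chains, measured 6.55, 0.864, 5.53 and 5.02 CPM. COL4A4 measured 5.55, 0.987, 5.44 and 4.30 CPM, and COL4A3, its partner in the alpha 3-4-5 network, 3.28, 0.493, 1.08 and 1.63 CPM. Library 2 was the lowest for all 3 genes, by factors of 6.60, 5.16 and 4.04 against the mean of the others. COL4A3 rests on 72, 8, 24 and 36 counts, and libraries 1 and 3 differed there beyond counting error (2.56 to 4.13 against 0.691 to 1.60 CPM).

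The multiplexin chains, which carry glycosaminoglycans and hold basement membranes to the stroma beneath, were both expressed. COL18A1, whose C-terminal fragment is endostatin, measured 246, 382, 229 and 258 CPM in libraries 1 to 4. COL15A1 measured 45.9, 22.3, 47.3 and 44.5 CPM. Library 2 was the highest for the one and the lowest for the other.

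Among fibril-associated chains, 4 of 10 were expressed, 2 reached 1 CPM in some libraries, 1 stayed below it and 3 had no count. COL12A1, a chain on type I fibrils in tendon and other dense tissue, measured 306, 79.3, 288 and 268 CPM in libraries 1 to 4. COL16A1 measured 151, 222, 132 and 129 CPM. COL14A1, which resembles COL12A1 in its domains, measured 133, 160, 114 and 120 CPM. Library 2 was low for COL12A1 and the highest for the other two. COL20A1 measured 7.42, 19.5, 5.17 and 5.07 CPM, and COL21A1 measured 2.14, 0.679, 2.02 and 1.63 CPM, so that library 2 again was highest for one and lowest for the other.

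Type IX collagen, the fibril-associated partner of type II fibrils in cartilage and vitreous, lacked chains. COL9A3 measured 1.27, 1.48, 0.854 and 0.904 CPM. COL9A1 had no count in libraries 1 and 2, 2 counts in library 3 and 1 in library 4, and COL9A2 had none at all. COL22A1, a chain of the junctions between muscle and tendon, and COL19A1 also had no count.

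Of the network-forming type VIII chains, COL8A1 was expressed and its partner was not. COL8A1 measured 123, 39.4, 136 and 119 CPM in libraries 1 to 4, with a mean of 126 ± 8.91 CPM without library 2. COL8A2 had 3, 0, 0 and 2 counts, an upper limit of 0.141 CPM over the 4 libraries. Type VIII collagen can assemble from COL8A1 chains alone, from COL8A2 chains alone or from both.

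The 3 main chains of type VI collagen, which encircles cells in most connective tissues, were expressed, and the other matched chains, COL6A5 and COL6A6, were not. COL6A3, the longest of them, measured 3008, 772, 2730 and 2662 CPM in libraries 1 to 4. COL6A1 measured 535, 670, 549.9 and 592 CPM, and COL6A2 measured 254, 554, 271 and 294 CPM. Library 2 was the lowest for COL6A3 and the highest for the other pair. COL6A5 had no count, and COL6A6 had 6, 4, 6 and 5 counts, or 0.254 ± 0.0218 CPM (SD, n = 4).

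None of the 4 transmembrane chains was expressed. COL17A1, the hemidesmosome collagen that anchors epithelium to its basement membrane, had 11, 1, 9 and 7 counts in libraries 1 to 4, with an upper limit of 0.4901 CPM. COL25A1, a neuronal chain, had 5, 0, 3 and 3 counts, and COL13A1, found at neuromuscular junctions, had 1, 3, 0 and 0. COL23A1 had no count. Outside these classes, COL26A1 had no count and COL28A1 had 2 counts, both in library 3. For each of the 6 chains with no count, the exact 95% Poisson upper limit over 4 libraries was 0.0447 CPM. For a count of 0 in 1 library, the same limit was 0.166 to 0.228 CPM, depending on the library. These limits cover counting error only, and reads of a gene model that ends short of the real transcript are not covered by them.

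In all, 7 pairs of chain genes neighbour each other in the RefSeq gene order of assembly T2T-MMU8v2.0, with genes nested inside a collagen gene passed over. Both members were expressed in the pairs COL4A1 with COL4A2, COL3A1 with COL5A2 and COL6A1 with COL6A2. COL4A3 and COL4A4 both reached 1 CPM in libraries 1, 3 and 4 but not in library 2. COL6A5 with COL6A6 and COL9A1 with COL19A1 were both silent or below 1 CPM in every library. Only in the pair COL4A5 and COL4A6 did the call differ, by library 2 in COL4A6. No neighbouring pair joined an expressed chain to one that stayed below 1 CPM in every library. The pairs were added after the values were seen and no share was counted for other neighbouring genes, so they are described only.

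Ratios between partner chains do not depend on how libraries are scaled, and they were steady in libraries 1, 3 and 4 for the abundant pairs. Of 12 pairs listed, 9 had an expressed member. Gene lengths were not used, so a ratio of counts does not give the ratio of molecules, and no test of which partner was higher was made. What can be compared is the same ratio between libraries. Length cancels there only if the same transcripts are made and reads depend on length alike in every library, which was not tested.

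COL1A1 collected 1.14, 1.66, 1.08 and 1.15 counts per COL1A2 count in libraries 1 to 4. Without library 2 the log2 ratio was 0.16 ± 0.05 (SD, n = 3), and library 2 lay 0.57 above that mean. COL6A1 collected 2.11, 1.21, 2.03 and 2.02 counts per COL6A2 count, and 0.178, 0.868, 0.201 and 0.222 per COL6A3 count. Within type VI the count of COL6A1 against COL6A3 was thus 4.34 times higher in library 2 than in the others, and against COL6A2 it was lower there. For COL5A1 over COL5A2 the ratios were 0.556, 0.368, 0.519 and 0.541, and for COL5A1 over COL5A3 they were 32.4, 15.7, 33.2 and 32.8. The ratio of COL5A1 to COL5A3 had the smallest SD of the 9 pairs without library 2, at 0.018 log2 units.

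COL4A1 collected 0.757, 0.381, 0.762 and 0.649 counts per COL4A2 count, with library 2 low and library 4 below libraries 1 and 3. For COL4A5 over COL4A6 the ratios were 9.06, 23.6, 9.54 and 5.38, a wider spread than in the other type IV pair. COL11A1 collected 1860, 609, 2425 and 2058 counts per COL11A2 count, where the denominator is 13 to 17 counts. COL8A1 had 2707, 638, 3029 and 2631 counts beside the 0 to 3 counts of COL8A2. In 5 of the 9 pairs library 2 lay apart from the other 3 by Dixon's gap test (COL1A1 over COL1A2, both COL5A1 pairs and both COL6A1 pairs). These pairs share COL5A1 and COL6A1. No share was counted for ratios of other gene pairs, so the count is described only.

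**Figure D3:**
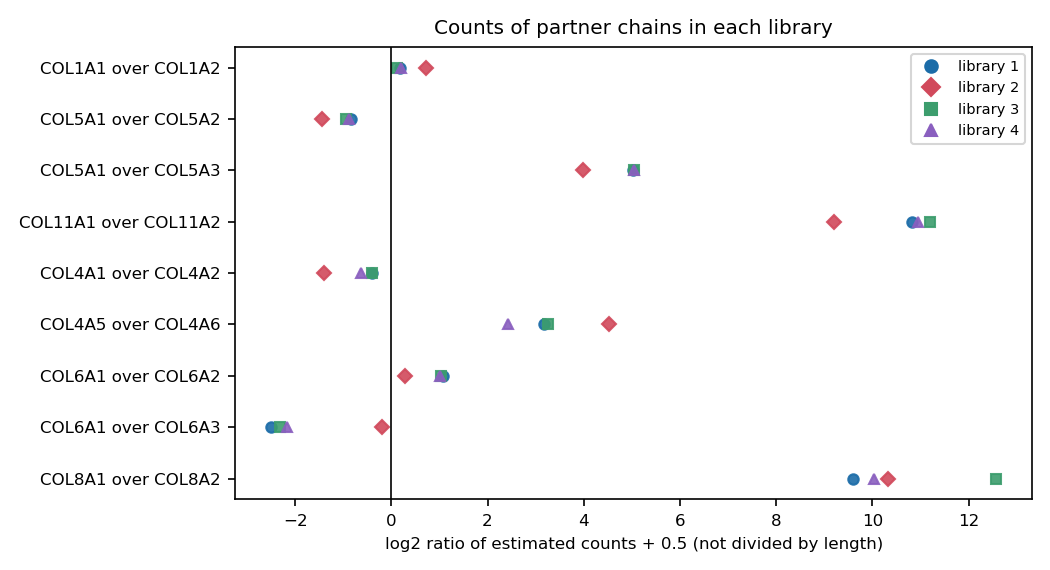
Points give the log2 ratio of estimated counts + 0.5 of 2 partner chains in each of the 4 libraries, for the 9 pairs with an expressed member, not divided by length. Libraries 1, 3 and 4 lie close together for the type I, V and VI pairs with library 2 to one side, and the ratio of COL8A1 to COL8A2 depends on the 0.5 added because COL8A2 has libraries with no count.

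The median spread of the expressed chains was smaller without library 2. Over the 22 expressed chains the median coefficient of variation was 36.2% with it and 6.61% without it, against 32.7% and 8.24% over the 11281 rows expressed by the same rule. COL4A5 kept the highest coefficient without library 2, 36.9% against 47.8% with it. Among the 27 chains whose mean reached 1 CPM, the highest of libraries 1, 3 and 4 exceeded the lowest by more than 1.5 times in 3, COL4A3, COL4A5 and COL27A1, where 14.8% of all such genes did. The gap between library 2 and the mean of the other libraries ran in both directions. It lay below the mean for 17 of the 27 chains (63.0%) and above it for 10, where 52.3% of all genes tested were lower in library 2. As a log2 ratio of library 2 to the others, the median was -1.03 over these chains and -0.075 over all 12453 genes whose mean reached 1 CPM.

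Library 2 was set apart from the others for 11 of the 27 chains by Dixon's test on CPM. It was highest in 4, COL1A1, COL2A1, COL6A2 and COL20A1, where the background was 21.8% of all genes tested. It was lowest in 7, COL4A2, COL5A1, COL5A2, COL6A3, COL11A1, COL12A1 and COL15A1, where the background was 11.2%. On the CPM scale a library low by some factor leaves a smaller gap than one high by the same factor. On log2(CPM + 0.5) library 2 was apart and lowest for 10 chains (background 21.5%) and apart and highest for 0 (background 14.7%), the 10 being those 7 with COL4A4, COL4A6 and COL8A1. Library 2 was more than 4 times below the mean of the others for 4 chains, COL4A3, COL4A4, COL4A6 and COL27A1, against a background of 13.3%, and for none of the 27 was it more than 4 times above.

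Direction depends in part on scaling. Under plain CPM the all-gene median of that log2 ratio was -0.50, 20 of the 27 chains (74.1%) were lower in library 2 against 64.8% of all genes, 7 were higher, and COL1A2, COL6A1 and COL14A1 turned from higher to lower. COL1A1, COL2A1, COL6A2, COL9A3, COL16A1, COL18A1 and COL20A1 were higher in library 2 under TMM, DESeq2 size factors and plain CPM alike. Relative to the median of all genes, 10 chains were higher and 17 lower under each of these scalings. Single libraries cannot be tested against each other, so these are values of 1 library and not of a condition.

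**Figure D4:**
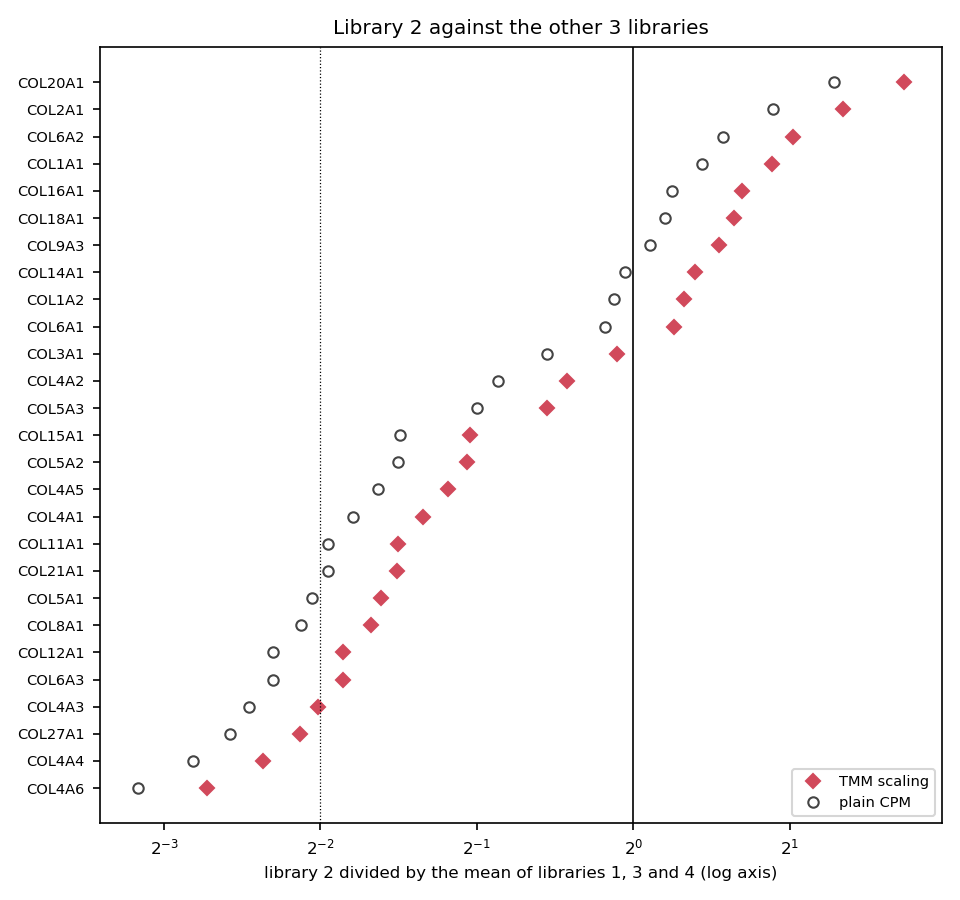
For each of the 27 chains whose mean reached 1 CPM, the level in library 2 is divided by the mean of libraries 1, 3 and 4, on a log axis, with TMM scaling (diamonds) and plain CPM (circles), a solid line at equality and a dotted line at 4 times below. Chains run from COL4A6, 6.60 times below with TMM, to COL20A1, 3.31 times above.

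Genes that make, process and bind collagen were mostly expressed, where 64.2% of rows with a symbol were. For folding, modification and export of procollagen, 21 of 24 matched genes were expressed. Of the 24, 10 were highest and 10 lowest in library 2, shares that were not counted over all genes. Of the 22 with a mean of at least 1 CPM, Dixon's test set library 2 apart and high for 5 and low for 3. These counts are near the background of 21.8% and 11.2% of all genes tested. SERPINH1, the collagen chaperone HSP47, measured 673, 1487, 695 and 769 CPM in libraries 1 to 4, and PPIB, a prolyl isomerase, 622, 2089, 609 and 684 CPM. The prolyl 4-hydroxylase subunit P4HB measured 967, 1773, 1001 and 1114 CPM. These 3 were highest in library 2, whereas the subunit P4HA1 (301, 140, 315 and 311 CPM) and PLOD2, the lysyl hydroxylase of telopeptides (531, 60.02, 568 and 506 CPM), were lowest there. P4HA3, COLGALT2 and TMEM38B were not expressed by the rule. For extracellular processing and crosslinking, 8 of 10 matched genes were expressed, including the procollagen C-proteinase BMP1 at 53.0 ± 5.99 CPM (SD, n = 4) and its enhancer PCOLCE at 243 ± 161 CPM, or 163 ± 13.0 CPM without library 2, where it had 485 CPM. LOX, LOXL2 and LOXL4 matched no row.

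Of 10 collagen receptors 7 were expressed. ITGB1, the common beta subunit of the collagen-binding integrins, measured 1591, 622, 1747 and 1572 CPM. ITGA11, the alpha subunit of a fibroblast receptor for fibrillar collagen, measured 597, 213, 568 and 557 CPM, and DDR2, a receptor tyrosine kinase for fibrillar collagen, measured 576, 186, 553 and 443 CPM. MRC2, an endocytic collagen receptor, ran the other way at 135, 271, 137 and 158 CPM. ITGA2 (10.1 ± 0.738 CPM in the other libraries) and ITGA10 fell below 1 CPM in library 2, and the platelet receptor GP6 stayed below it throughout. Of the 10 receptors, 7 were lowest in library 2 and 2 highest, MRC2 and LAIR1. The share of all genes lowest or highest there was not counted, and LAIR1 rests on 44 counts in library 2.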

How the data were processed

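RNA of 4 RF/6A libraries was sequenced on a BGISEQ-500, per the labels. The authors deposited estimated counts per Ensembl rhesus gene as whole numbers. Per the submitters' processing notes, Salmon and DESeq2 were used, with no roles stated. Their genome build is not given in the sources used here. Estimation by Salmon shares ambiguous reads among transcripts, an error that counting intervals do not cover. Symbols came from a table of Ensembl identifiers (14654 of 21314 rows). Counts were scaled with TMM in edgeR 4.0.16 (R 4.3.3); DESeq2 1.42.0 size factors and plain CPM were alternatives. Lengths, promoter and protein sequences were not used, so the planned sign-flip test of partner chains per coding length was not run and ratios of counts are described. Dixon's gap test (critical value 0.829) was run per gene on 12453 genes whose mean reached 1 CPM. A run on simulated data changed only genes with counts well above that level, so it does not show how the test performs near 1 CPM. Every chain is named by the rule. In full are the 2 highest expressed chains per class, partner chains and those over 4 times apart in library 2. The members and lists were chosen with earlier results of these data known. The 1.5-fold spread of libraries 1, 3 and 4, neighbour pairs and log-scale background were added after the values were seen.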

Additional observations from a re-analysis of the deposited data

Results flagged for a closer look

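Dixon's gap test was run on 37 collagen values, the 27 chains whose mean reached 1 CPM, the share of collagen counts and 9 partner ratios. In 16 the test set a single library apart from the other 3, and in all 16 that was library 2. Chance gives about 1 in 20 values. That rate is not the background here, because library 2 was known from earlier results of these data to stand apart. The 16 values share that library, and the ratios reuse counts of collagen chains, so they are not independent of one another. Library 2 also stood apart in many genes outside the collagens. Over all 12453 genes tested, it was apart and highest in 21.8% and apart and lowest in 11.2%.

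Library 2 was apart and above the others for COL1A1 (16445 CPM), COL6A2 (554 CPM), COL20A1 (19.5 CPM) and COL2A1 (19.1 CPM). It was apart and below them for COL5A2 (1410 CPM), COL6A3 (772 CPM), COL5A1 (519 CPM), COL11A1 (488 CPM), COL4A2 (470.1 CPM), COL12A1 (79.3 CPM) and COL15A1 (22.3 CPM). The test sets a gap against the range of the values, so a flag does not measure its size. For COL4A2, library 2 was 0.747 times the mean of the others. Ratios free of library scaling were set apart too. The log2 count ratio in library 2 was 0.73 for COL1A1 over COL1A2 and -0.20 for COL6A1 over COL6A3, both high. It was -1.44 for COL5A1 over COL5A2, 3.98 for COL5A1 over COL5A3 and 0.27 for COL6A1 over COL6A2, all low. Ribosomal protein genes took 14.98% of counts in that library, and their part in these gaps was not tested.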

How the results depend on the processing

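The count of 22 expressed chains was also 22 with plain CPM, DESeq2 size factors or filterByExpr, 27 at 0.5 CPM, 21 at 5 CPM, and 22 to 26 with a library left out. The collagen share of 3.52% was 4.16% of counts in rows with a symbol, a smaller denominator, and 3.44% to 3.70% with a library left out. The 4 chains with library 2 apart and highest became 0 with plain CPM and 0 on log2(CPM + 0.5), and 5 with DESeq2 size factors. The 7 with it lowest became 9, 10 and 5, and the total of 11 stayed between 9 and 11. The mean log2 ratio of COL8A1 to COL8A2 fell from 10.63 to 8.30 with 5 counts added in place of 0.5 (chosen after seeing the data), since COL8A2 has libraries with no count. No partner ratio changed sign. Levels of all 22 expressed chains moved by less than 1 SD under both other scalings and without library 1, 3 or 4, as did 20 without library 2. The exceptions were COL3A1 and COL4A2, at 6168 and 679.8 CPM once the remaining libraries were scaled again, against 5710.0 and 629 CPM for those libraries at the 4-library scaling. This rule is lenient. At a fixed scaling, leaving out 1 of 4 libraries cannot move a mean by 1 SD, so only the new scaling could. The SD also includes library 2. COL6A3 thus counted as unmoved at 3025 CPM without library 2, from 2293 ± 1025 CPM with it. Per-length alternatives for partner ratios were not run. No paired analysis was possible because there is 1 group. Depth limits chains below 1 CPM, where 3 counts are 0.135 to 0.185 CPM.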
